A study of Mus musculus with 96 samples.

Results

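The subject is a set of 10 mouse genes whose mRNAs belong, or are closely related, to the class called TOP mRNAs. The members are 5 subunits or relatives of the elongation factors (Eef1a1, Eef1b2, Eef1d, Eef1g and Eef2), 2 initiation factors (Eif4a1 and Eif3e), and Tpt1, Npm1 and Gnb2l1. The rule picks them by name alone, 10 of the 21711 gene rows of the expression table, and the set was drawn up with earlier results of these data known. All 10 were found, and all 10 were among the 11054 genes with at least 100 reads over both cell types.

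The assay was STRT, short for single-cell tagged reverse transcription, which puts a well barcode on each cDNA and reads the 5′ end of the transcript. A 96-well plate carried ES cells, which are pluripotent cells of the line R1 (48 wells), MEFs, which are fibroblasts from mouse embryos grown in DMEM with 10% FBS (44 wells), and negative controls (4 wells). No allele, agent or age is given for either type, and the source line R1 is also written for the MEF wells, which goes against their cell type label. Each type is treated as 1 culture, so cells are not replicates and no test between the types was run. Differences are described by size, against the spread over the 8 plate rows that each held both types.

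A TOP mRNA begins at a C followed by an uninterrupted run of pyrimidines, the 5′ terminal oligopyrimidine tract. The kinase complex mTORC1 sets how strongly such mRNAs are translated, in part through the cap-binding protein LARP1, and nearly all ribosomal protein mRNAs belong to the class. Because the control acts mostly on translation, an mRNA level is only a part of what decides how much protein is made.

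RefSeq promoter sequences (build GRCm38.p6) were matched for 6 of the 10 members: Eef1a1, Eef1b2, Eef2, Eif4a1, Tpt1 and Gnb2l1, the last under its current symbol Rack1. Eef1d, Eef1g, Eif3e and Npm1 were not matched. The search was for a C followed by at least 4 further C or T, read on the gene's strand, with that C within 10 bases of the annotated transcript start. Eef1a1 and Gnb2l1 held one, 2 of 6, against 29.7% of 32851 promoters. The lines below show 30 bases around each tract, written 5′ to 3′ with the run of pyrimidines in capitals. A run of this kind at the very start of an mRNA gives the class its name. Both runs shown begin before the annotated start, so they are not shown to be the 5′ terminal tract of these mRNAs.
Gnb2l1: ggaggccgCTCTTTCTTTTTCTCCacaggg
Eef1a1: tggctccgCCCTCTTCCCgagggtggggga
The Gnb2l1 window is chr11:48800346-48800375 on the plus strand, and its tract of 16 pyrimidines starts 6 bases before the annotated start. A tract at least that long in this position was found in 0.584% of all promoters. The Eef1a1 window is chr9:78481708-78481737 on the minus strand. Its tract has 10 bases and starts 5 bases before the annotated start, and 3.52% of all promoters held a tract as long. With the search widened to 50 bases on either side, 5 of the 6 members held a tract, against 77.1% of all promoters, so the wider window hardly separates the members from other genes. An annotated start need not be the start used in these cells, and a match or a missing match is only a description of these letters.

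The depth differed between the types. The 45 ES cells with at least 10000 gene reads had a median of 161206 gene reads (13576 to 703423), and the 44 MEFs had a median of 851801 (63938 to 1883709). Gene reads per spike-in read had a median of 6.62 in ES cells, 152 in MEFs and 0.126 in the negative controls. All 9 measured ES cell markers had at least a 2-fold higher level in ES cells, and all 10 MEF markers did in MEFs. Of 17 markers of other cell types, Cd68, Hbb-b1, Pecam1, Cdh5, Cdx2, Gata4 and Sox17 had no read in either type. Others were found mainly in MEFs: Dab2 at 4.13 CPM (counts scaled to a total of 1e6 gene reads) in ES cells and 153 CPM in MEFs, Gata6 at 0.229 and 21.1 CPM, Krt19 at 1.83 and 16.9 CPM, and Kdr, Krt18 and Lyz2 at 0 CPM in ES cells and 5.69, 4.24 and 2.10 CPM in MEFs. The summed MEF markers varied widely over the wells labelled ES cell. Of those wells, 5 (replicates 2, 4, 7, 8 and 30) were doubted, as they hold more spike-in than gene reads or lie nearer the MEF mean profile. In these 5 the MEF markers ran from 6833 to 29897 CPM. They ran from 89.3 to 6893 CPM in the other 40 ES cells and from 6021 to 67589 CPM in MEFs. Nearness to the MEF profile was part of the choice, so high MEF markers and MEF-like member levels in these wells are partly set by it. Together the members had a median of 3633 reads per well in ES cells (109 to 14458), 11214 in MEFs (906 to 26887) and 38.5 in the negative controls (1 to 79).

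The 10 members together took 2.15% of the ES cell gene reads and 1.49% of the MEF gene reads, with exact binomial 95% intervals of 2.14% to 2.16% and 1.48% to 1.49%. These intervals, like all those given here, treat each read as an independent count and cover that error only. PCR copies were not removed, so the intervals do not cover the sampling of molecules. Over single cells the share ran from 0.803% to 3.41% with a median of 2.07% in ES cells, and from 0.473% to 2.47% with a median of 1.44% in MEFs. The upper end was higher in ES cells, and the ranges of the types overlapped. In the negative controls the members took 1.25% of 12527 gene reads. The log2 ratio of ES cells over MEFs was 0.53, with an SD of 0.28 over the 8 plate rows, and the share was higher in ES cells in 8 of 8 rows.

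Member by member, the mRNAs did not move as a block. Eef1b2 and Npm1 exceeded their MEF level by 2-fold or more in ES cells, 2 of 10, where the share of all measured genes was 13.3%. Tpt1 was at least 2-fold higher in MEFs, 1 of 10, where the share of all measured genes was 59.1%. The other 7 lay within 2-fold in either direction. The scale matters here, since the median gene had a log2 ratio of -1.54 (SD over rows 0.44). As reported, all 10 members lay above it, by 0.24 for Tpt1 up to 3.13 for Npm1. Tpt1 lay below the median gene with 10 CPM added (-1.29 against -0.68). It did so narrowly after thinning to 20000 reads per cell (-1.14 against -1.13) and in plate rows E to H (-1.61 against -1.58). With reads scaled to the spike-in RNA instead, all 10 members were at least 2-fold lower in ES cells, so each statement that a member is higher in ES cells is one about its share of the gene reads. Gene reads per spike-in read did not overlap between the types, at 0.347 to 13.1 in the ES cells and 41.4 to 544 in the MEFs.

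**Figure D1:**
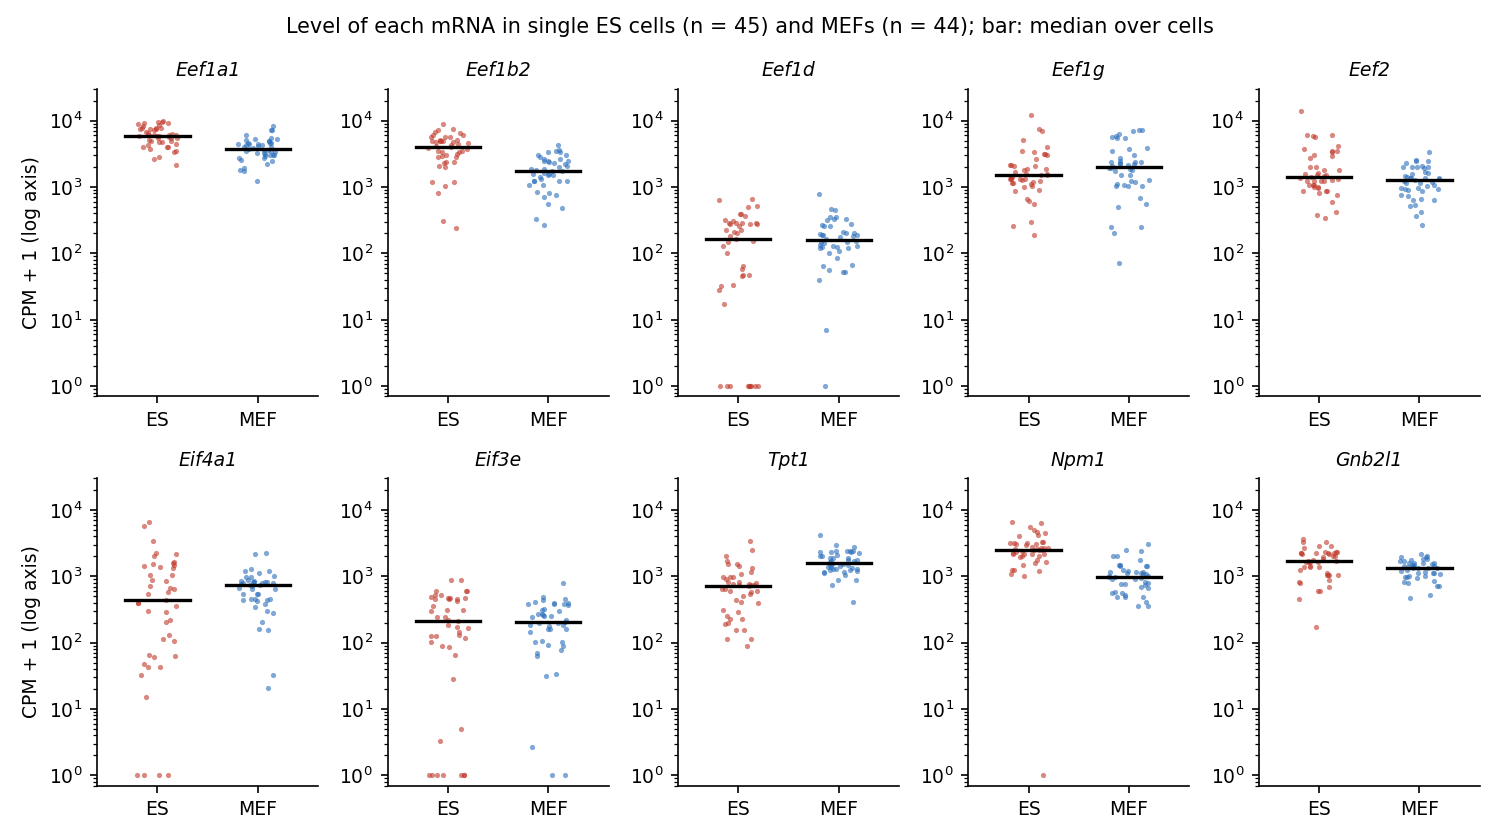
Level of each member in single cells, as CPM + 1 on a log axis, with 45 ES cells on the left and 44 MEFs on the right of each panel and the bar at the median. Tpt1, Eef1g and Eif4a1 have the lower median in ES cells and the other 7 the higher one, by little for Eef1d, Eif3e and Eef2, while points on the bottom line are cells with no read, as in 9 ES cells for Eef1d.

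The first factor of elongation is eEF1, which carries aminoacyl-tRNA to the ribosome and is recharged with GTP by a subunit complex. Eef1a1 encodes the tRNA carrier itself and was the most abundant member in both types. It ranged over 2145, 5946 and 9818 CPM (lowest, median and highest) in ES cells and over 1236, 3772 and 8245 CPM in MEFs. Of the 45 ES cells, 39 lay above the MEF median, but only 8 lay above every MEF. Pooled over cells, it stood at 6354 CPM in ES cells and 3846 CPM in MEFs, a log2 ratio of 0.72 with an SD of 0.40 over rows, higher in ES cells in 8 of 8. It ranked 13th of all genes by CPM in ES cells and 18th in MEFs. The negative controls had 47 Eef1a1 reads, or 3752 CPM (2757 to 4989), an interval that holds the pooled MEF level and lies below that of ES cells. Reads with a single mapping made up 95.9% of the Eef1a1 count, so a small part could come from near copies elsewhere in the genome. Its paralogue Eef1a2, known from nerve and muscle, had no read in either type.

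Eef1b2 encodes the nucleotide exchange subunit of eEF1. It had 240, 4039 and 8887 CPM (lowest, median and highest) over ES cells, and 270.3, 1758 and 4251 CPM over MEFs. In 21 of 45 ES cells it exceeded every MEF, and 1 MEF of 44 lay above the ES cell median. The pooled values were 4520 CPM in ES cells (4476 to 4565) and 1871 CPM in MEFs (1857 to 1885), with exact Poisson 95% intervals in brackets, which is 2.42-fold, a log2 ratio of 1.27 with an SD of 0.63. The 8 rows ran from 0.45 to 2.15, so every row pointed the same way but their sizes differed widely. In the 5 doubted ES cell wells the median of Eef1b2 was 1210 CPM, against 4336 CPM in the other 40 ES cells. How these wells were picked partly sets this contrast. Without them, Eef1b2 was still called at least 2-fold higher in ES cells.

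Eef1g encodes a structural subunit of the same complex, and it did not follow Eef1b2. Its lowest, median and highest values were 189, 1504 and 12132 CPM in ES cells and 69.7, 1986 and 7152 CPM in MEFs. The pooled values were 1985 CPM in ES cells and 2684 CPM in MEFs, with 3 of 8 rows higher in ES cells. The log2 ratio of -0.44 is smaller than its SD of 0.70. The negative controls had 32 Eef1g reads, or 2554 CPM (1747 to 3606), an interval that holds the pooled levels of both types. The ratio of Eef1b2 to Eef1g reads, pooled over cells, compares both subunits within a type. It was 2.28 in ES cells and 0.697 in MEFs, a 3.27-fold difference, or 1.71 on the log2 scale with an SD of 0.44 and above 0 in 8 of 8 rows. Eef1b2 outnumbered Eef1g in 37 of 45 ES cells and in 21 of 44 MEFs. With cells weighted equally, by the mean of per-cell CPM, the difference was 1.30, and with median-of-ratios size factors 1.25. Transcript length cancels in this comparison between types.

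Eef1d encodes another exchange subunit and was the least abundant member by CPM. It ranged over 0, 163 and 664 CPM (lowest, median and highest) in ES cells and over 0, 158 and 796.0 CPM in MEFs, with almost complete overlap. Pooled, it had 204 CPM in ES cells and 171 CPM in MEFs, a log2 ratio of 0.26 with an SD of 0.87. No read was found in 9 ES cells, whose median depth was 127238 gene reads, and in 1 MEF. With every cell thinned to 20000 gene reads, which leaves 42 ES cells and 44 MEFs, a read remained in 69% of ES cells and 84.1% of MEFs, where the unthinned shares were 80% of ES cells and 97.7% of MEFs. At this depth the thinned level is near that of a few reads per cell. The 4 negative controls held 7 Eef1d reads, or 559 CPM (225 to 1151), which is above both types.

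Eef2 encodes the factor that moves the ribosome along by a codon. Its values were 337, 1424 and 14089.7 CPM (lowest, median and highest) in ES cells and 271, 1268 and 3381 CPM in MEFs. The types had nearly the same median, but 10 ES cells lay above every MEF. Pooled, there were 1908 CPM in ES cells and 1409 CPM in MEFs, a log2 ratio of 0.44 with an SD of 0.29. Eef2 was higher in ES cells in 8 of 8 rows. The negative controls had 33 Eef2 reads, or 2634 CPM (1813 to 3700), which is above both types, though the interval holds the pooled ES cell level. The coefficient of variation (SD over mean) across cells was 1.04 in ES cells and 0.507 in MEFs. The ratio of Eef1a1 to Eef2 reads was 3.33 in ES cells and 2.73 in MEFs. That difference, 0.29 on the log2 scale, was within its SD of 0.37, and it was -0.15 with the mean of per-cell CPM and -0.17 with median-of-ratios size factors.

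Initiation loads the small ribosomal subunit on the mRNA. Eif4a1 encodes the RNA helicase that opens the 5′ end. It had 0, 432 and 6556 CPM (lowest, median and highest) in ES cells and 19.6, 730.1 and 2231 CPM in MEFs. The pooled value was higher in ES cells, 954 CPM against 751 CPM in MEFs, but the median cell was higher in MEFs, and only 17 of 45 ES cells lay above the MEF median. Its coefficient of variation was 1.44 in ES cells, the largest of the 10 members there, and 0.629 in MEFs. The 3 highest ES cells had 3399, 5724 and 6556 CPM and lay above every MEF. The log2 ratio of 0.34 was below its SD of 0.94, with plate row H at -1.92.

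Eif3e encodes a subunit of eIF3, the large scaffold of initiation. Its lowest, median and highest values were 0, 214 and 893 CPM in ES cells and 0, 201 and 805 CPM in MEFs. The pooled values of 262 CPM in ES cells and 245 CPM in MEFs gave a log2 ratio of 0.10 with an SD of 0.81, and 3 of 8 rows were higher in ES cells. It had no read in 7 ES cells, whose median depth was 73583 gene reads, and in 2 MEFs. It was the member with the smallest difference between the types.

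Tpt1 encodes the translationally controlled tumour protein TCTP, a growth-related protein whose mRNA is a classical TOP mRNA. It was the member with the lowest log2 ratio. Its values were 89.3, 719 and 3446 CPM (lowest, median and highest) in ES cells and 408, 1595 and 4257 CPM in MEFs. Only 4 of 45 ES cells lay above the MEF median, and 14 ES cells lay below every MEF. Pooled, it had 675 CPM in ES cells (658 to 692) and 1666 CPM in MEFs (1652 to 1679). The log2 ratio was -1.30 with an SD of 0.64, or 2.47-fold higher in MEFs, and it pointed to MEFs in 8 of 8 rows. The negative controls had 13 Tpt1 reads, or 1038 CPM. In the 5 doubted ES cell wells Tpt1 had a median of 1694 CPM, against 620.1 CPM in the other 40 ES cells. This contrast, too, is partly set by how the wells were picked. Without those wells Tpt1 stayed at least 2-fold higher in MEFs. The call was lost under 2 other scalings, with a log2 ratio of -0.30 with median-of-ratios size factors and -0.65 with totals that leave out ribosomal protein genes.

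Npm1 encodes nucleophosmin, a nucleolar chaperone of ribosome assembly. It had 0, 2519 and 6470.2 CPM (lowest, median and highest) in ES cells and 355, 989 and 3083 CPM in MEFs. In ES cells 44 of 45 lay above the MEF median, the exception being the shallowest ES cell, which had 13576 gene reads and no Npm1 read. Pooled, the levels were 2921 CPM in ES cells (2885 to 2957) and 973 CPM in MEFs (963 to 984), which is 3.0-fold. The log2 ratio of 1.59 had an SD of 0.24, the smallest of the 10, and the 8 rows ran from 1.25 to 2.01. The ratio of Npm1 to Tpt1 reads was 4.33 in ES cells and 0.584 in MEFs, a difference of 2.89 on the log2 scale with an SD of 0.77 and the same direction in 8 of 8 rows.

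Gnb2l1 encodes RACK1, a protein of the small ribosomal subunit that docks signalling enzymes. Its values were 172, 1706 and 3673 CPM (lowest, median and highest) in ES cells and 465, 1341 and 2197 CPM in MEFs. In 14 ES cells it exceeded every MEF. The pooled values were 1735 CPM in ES cells and 1268 CPM in MEFs, a log2 ratio of 0.45 with an SD of 0.29, higher in ES cells in 8 of 8 rows. Its coefficient of variation in MEFs, 0.309, was the lowest of the 10 members in that type. The negative controls had 18 Gnb2l1 reads, or 1437 CPM (852 to 2271), an interval that holds the pooled levels of both types.

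**Figure D2:**
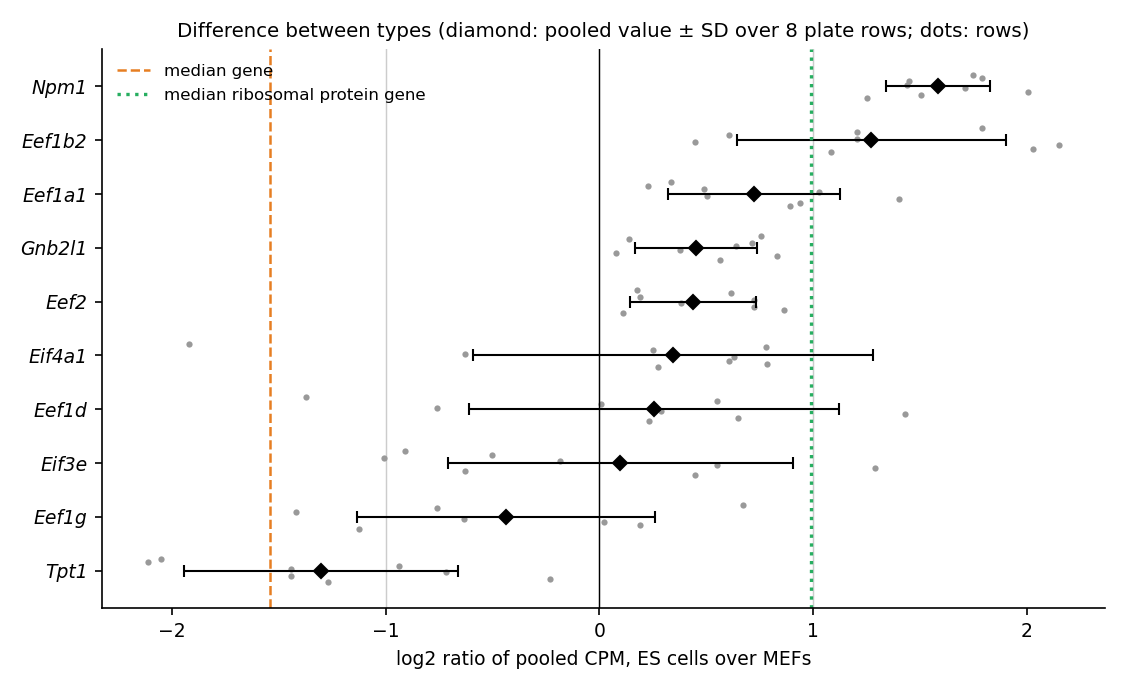
Log2 ratio of pooled CPM, ES cells over MEFs, for each member, as a diamond with the SD over 8 plate rows, with each row as a dot. The dashed line is the median gene at -1.54 and the dotted line the median ribosomal protein gene at 0.99; scaled to spike-in RNA, every diamond would lie below 0.

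To compare levels between members, CPM was divided by transcript length, with the reservation that reads start at the 5′ end of the transcript. In ES cells the order of CPM per kb was Eef1a1 (3551), Eef1b2 (2350), Npm1 (2320), Gnb2l1 (1383), Eef1g (1268), Tpt1 (757), Eef2 (616), Eif4a1 (507), Eif3e (170.1) and Eef1d (71.5). Here Eef1b2 and Npm1 were not separated beyond their row spread, and neither were neighbours in the run from Gnb2l1 to Eif4a1. In MEFs the order of CPM per kb was Eef1a1 (2150), Tpt1 (1868), Eef1g (1715), Gnb2l1 (1011), Eef1b2 (972), Npm1 (773), Eef2 (455), Eif4a1 (400), Eif3e (159) and Eef1d (59.9). Neighbours among the first 3 were not separated in MEFs, nor were Gnb2l1, Eef1b2 and Npm1, nor Eef2 and Eif4a1. The ends of the order were shared by the types, with Eef1a1 first and Eif3e and Eef1d last. The middle was not. By CPM per kb, Tpt1 held place 6 in ES cells and place 2 in MEFs, and Eef1b2 held place 2 in ES cells and place 5 in MEFs. By CPM without division by length, Tpt1 held place 8 in ES cells and place 4 in MEFs. Eef1b2 then held place 2 in ES cells and place 3 in MEFs, so its place in MEFs depends on the division.

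The closest relatives in the table are the ribosomal protein genes, 87 by symbol. Their share was 45.6% of the ES cell gene reads and 14.9% of the MEF gene reads, a log2 ratio of the sums of 1.62 with an SD of 0.34 over rows. The members' sum fell short of that by 1.08 on the log2 scale, SD 0.27, in 8 of 8 rows. The gap was -1.12 with the mean of per-cell CPM and -1.19 with median-of-ratios size factors. Among the 86 measured ribosomal protein genes the median log2 ratio was 0.99, with 42 called higher in ES cells and 8 called higher in MEFs. Single genes among them ran from -4.76 to 10.2. The median member had a log2 ratio of 0.39 (SD over rows 0.29), so the gap between medians was smaller than that between sums. Npm1 had a higher log2 ratio than 74 of these 86 genes and Eef1b2 than 65, whereas Eef1a1 exceeded 29, Eef1g 10 and Tpt1 only 4.

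Across cells of a type, the members followed the ribosomal protein genes to different degrees. Spearman's rho between the summed members and the summed ribosomal protein genes, both in CPM, was 0.26 over 45 ES cells and 0.74 over 44 MEFs. These points share a plate, a library and the total by which both sums were divided, and the ES cells are shallower, so the values are a description. Tpt1 went the other way in ES cells, with rho of -0.51 against the ribosomal protein sum, where it was 0.21 in MEFs. Tpt1 also moved with the summed MEF markers over ES cells, with rho of 0.65, and the part these markers have in the result was not tested. Without the 5 doubted wells, an alternative chosen after seeing the data, rho over 40 ES cells was -0.42 with the ribosomal protein sum and 0.56 with the MEF markers.

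**Figure D3:**
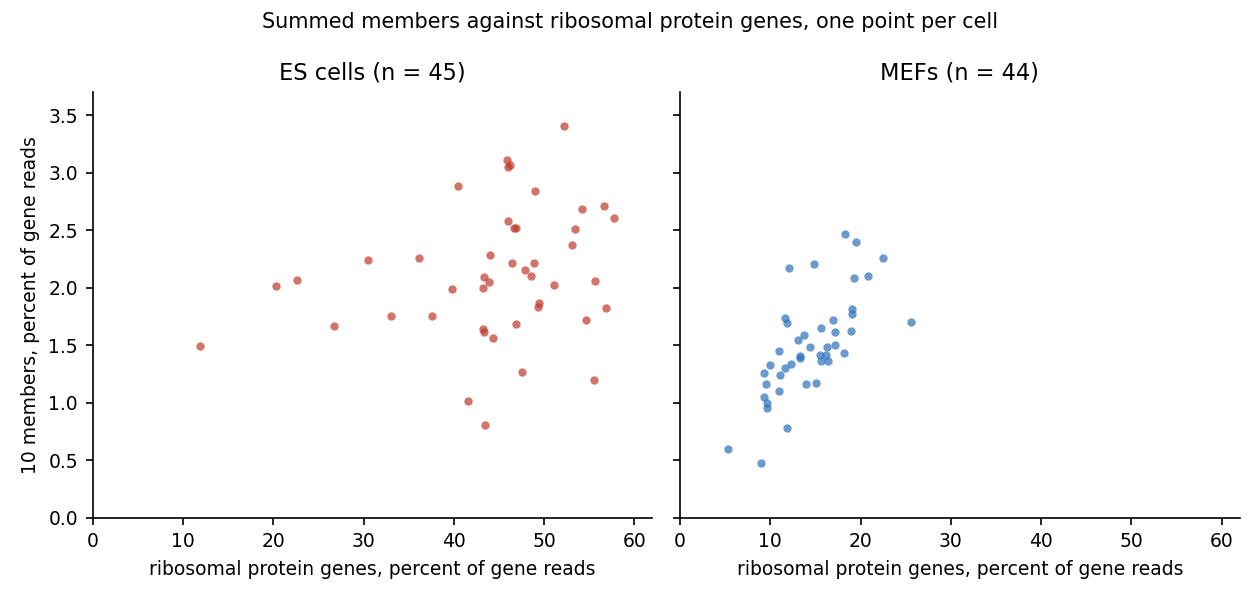
Share of gene reads taken by the 10 members (vertical) against that taken by ribosomal protein genes (horizontal), in percent, with 1 point per cell, for 45 ES cells on the left and 44 MEFs on the right. The MEF points climb along a band (rho 0.74), while the ES cell points, from 0.803% to 3.41% of reads, form a wide cloud (rho 0.26).

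Genes were ranked by rho with the summed members, among those detected in 50% or more of a type's cells. In ES cells the 5 most alike of 1193 were Rpl3 (rho 0.64), Rpl23, Rpl6, Rpl7 and Rpsa (0.51). In MEFs the 5 most alike of 5293 were Rps25 (0.66), Fau, Rpl17, Rps3a and Rpl11 (0.65). All of these encode proteins of the ribosome, Fau as a fusion with a ubiquitin-like domain. Among the top 20 genes, 16 in ES cells and 17 in MEFs were ribosomal protein genes, which made up 82 of the 1193 ranked genes in ES cells and 84 of the 5293 in MEFs. The median rho over all ranked genes was -0.03 in ES cells and -0.04 in MEFs.

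Pairs of members were only loosely tied. Over the 45 pairs the median rho was 0.11 in ES cells, with 29 pairs above 0, and 0.21 in MEFs, with 41 pairs above 0. The closest pair in ES cells was Eef1a1 with Eef1b2 (0.49), followed by Eef1b2 with Npm1 (0.46). The closest in MEFs were Eef1a1 with Eef2 (0.60) and Npm1 with Gnb2l1 (0.51). In ES cells the lowest pairs were Tpt1 with Npm1 (-0.34) and Tpt1 with Eef1b2 (-0.31).

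**Figure D4:**
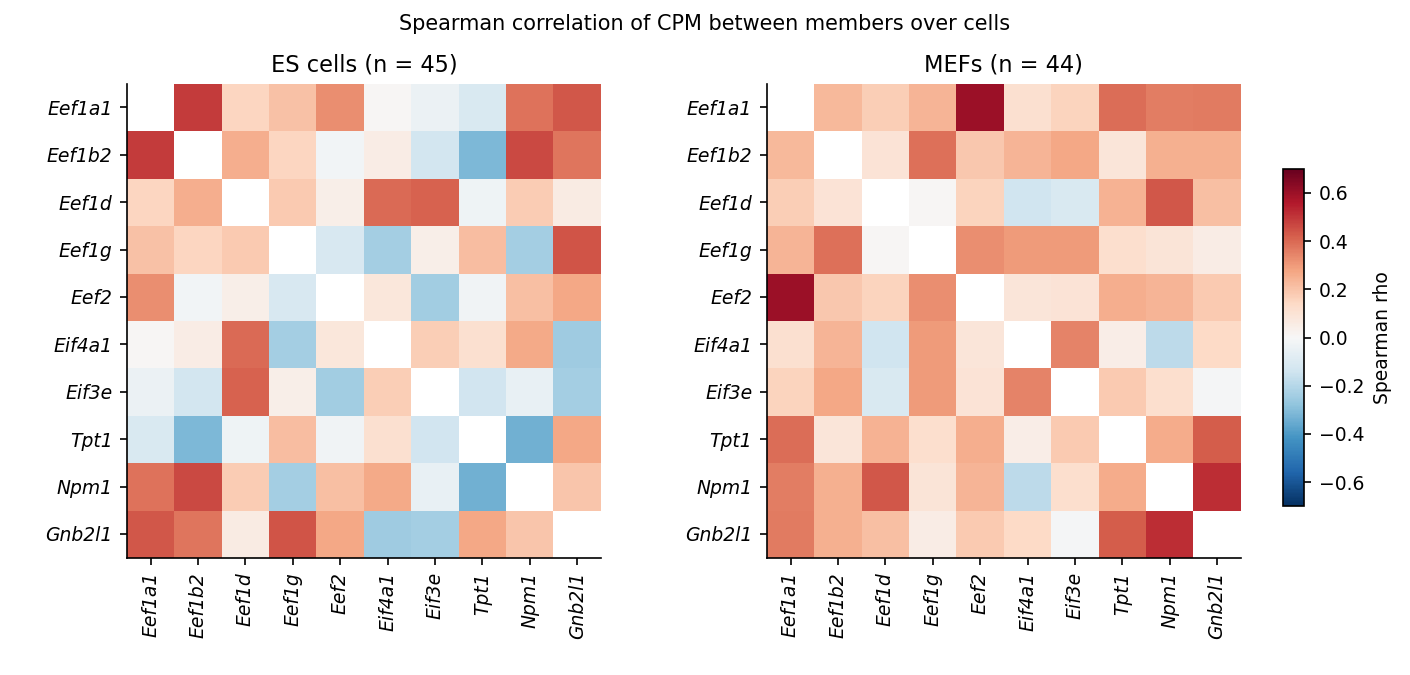
Spearman's rho between each pair of members over 45 ES cells on the left and 44 MEFs on the right, with blank squares on the diagonal. Red squares prevail in MEFs, where 41 of 45 pairs are above 0, while the Tpt1 row is partly blue in ES cells.

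Cell-to-cell spread also set the members apart from one another. Among genes with at least 200 CPM the median coefficient of variation was 1.14 in ES cells (425 genes) and 0.801 in MEFs (843 genes), and for ribosomal protein genes it was 0.452 in ES cells and 0.460 in MEFs. Eef1a1 was below these levels at 0.332 in ES cells and 0.372 in MEFs. Eef1b2 (0.493 in ES cells and 0.514 in MEFs) and Npm1 (0.493 in ES cells and 0.542 in MEFs) were close to the ribosomal protein genes. Tpt1 was at 0.829 in ES cells and 0.399 in MEFs. No member but Eif4a1 exceeded the median gene in ES cells.

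Other genes of translation were examined as context, from 10 lists that hold none of the members. In these counts a gene is called at 2-fold by size, and the shares of all measured genes given above, 13.3% for ES cells and 59.1% for MEFs, are the background. Of 9 measured genes listed as other elongation factors, 0 were higher in ES cells, 7 were higher in MEFs and 2 lay between. Their median log2 ratio was -1.28 (SD over rows 1.07). Among them, Tufm, Tsfm, Gfm1 and Gfm2 act in mitochondria. Eif5a, the hypusine-bearing factor, had 176 CPM in ES cells and 428 CPM in MEFs. Eef2k, the kinase that inhibits eEF2 and not itself an elongation factor, had 8.03 CPM in ES cells and 53.7 CPM in MEFs. Eif5a2, a paralogue of Eif5a, had 2.41 CPM in ES cells and 17 CPM in MEFs, and Gfm1, a mitochondrial elongation factor, had 5.62 CPM in ES cells and 22.1 CPM in MEFs. For both of these the SD over rows (3.52 and 2.32) exceeded the size of the log2 ratio (-2.82 and -1.98).

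The remaining 12 subunits of eIF3 split as 2 higher in ES cells, 2 higher in MEFs and 8 between, with a median of -0.06. Eif3m had 816 CPM in ES cells and 265 CPM in MEFs, a log2 ratio of 1.62 with an SD of 0.67, and Eif3k had 494 CPM in ES cells and 245 CPM in MEFs. On the other side, Eif3f stood at 195 CPM in ES cells and 467 CPM in MEFs, with a log2 ratio of -1.26 (SD 1.21), and Eif3j at 22.4 CPM in ES cells and 60.1 CPM in MEFs. Eif3e itself, at 0.10, lay close to the median of its complex.

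Of 17 initiation factors from eIF1 to eIF6 outside these complexes, 4 were higher in ES cells, 4 were higher in MEFs and 9 lay between, median -0.36. Eif2b1, a subunit of the exchange factor eIF2B, had 174 CPM in ES cells and 7.65 CPM in MEFs, with a log2 ratio of 4.51 but an SD over rows of 3.26. Eif1ad had 81.1 CPM in ES cells and 27.3 CPM in MEFs. Eif5, which triggers GTP hydrolysis on eIF2, had 84.5 CPM in ES cells and 348 CPM in MEFs. Eif5b, which joins the ribosomal subunits, had 39.6 CPM in ES cells and 106 CPM in MEFs. The SD over rows exceeded the log2 ratio for Eif1ad (3.07 against 1.57) and Eif5b (1.80 against -1.43), but not for Eif5 (1.21 against -2.04).

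In the group around Eif4a1, the eIF4 and poly(A)-binding factors, 2 of 15 were higher in ES cells and 8 in MEFs, median -1.15. Its 4 named genes were all lower in ES cells: Eif4a3, the helicase of the exon junction complex (10.5 CPM in ES cells, 52.5 in MEFs), Eif4e3 (1.61 and 25.6), Eif4g3 (10.3 and 80.8) and Paip2, an inhibitor of poly(A)-binding protein (40.1 and 136). Of 6 termination and recycling factors, 1 was higher in ES cells, 1 was higher in MEFs and 4 lay between, median 0.21. Etf1, the release factor that reads stop codons, had 785 CPM in ES cells and 183 CPM in MEFs, with a log2 ratio of 2.10 below its SD over rows of 3.27 and a read in 25 of 45 ES cells. Its partner Gspt1 had 173 CPM in ES cells and 127 CPM in MEFs. Gspt2 had 2.18 CPM in ES cells and 4.72 CPM in MEFs, and the ribosome rescue factor Pelo had 10.3 CPM in ES cells and 16.1 CPM in MEFs. The SD over rows exceeded the size of the log2 ratio for Gspt1 (2.33 against 0.45), Gspt2 (2.23 against -1.12) and Pelo (3.82 against -0.64). Gspt2, the gene called higher in MEFs, had a read in 2 ES cells and 3 MEFs. That call was lost under several settings, among them thinning and 10 CPM added.

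A list of 12 other mRNAs known to carry a TOP, of which Pabpc1, Eif3f, Eif3h and Eif4b are also in the initiation lists above, had a median log2 ratio of 0.63 (SD 0.25), with 4 higher in ES cells, 2 higher in MEFs and 6 between. Rpsa, a small-subunit protein that is also counted with the ribosomal protein genes above, had 2551 CPM in ES cells and 741 CPM in MEFs. Btf3, a subunit of the nascent polypeptide-associated complex, had 2609.8 CPM in ES cells and 719 CPM in MEFs, a log2 ratio of 1.86 with an SD of 0.98. Hnrnpa1 had 543 CPM in ES cells and 95.8 CPM in MEFs, but only 2.23% of its reads mapped to a single place, so its count is uncertain. Vim, the intermediate filament protein of fibroblasts, had 335 CPM in ES cells and 3298 CPM in MEFs, a log2 ratio of -3.30. Like the members, this group held mRNAs on both sides of 0.

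The regulators of the class, mTORC1 with 4E-BP and LARP1, gave 0 of 13 higher in ES cells and 7 higher in MEFs, with a median of -1.09 (SD 1.31). Rheb, the small GTPase that activates mTORC1, had 8.83 CPM in ES cells and 99.6 CPM in MEFs. Tsc2, which inactivates Rheb, had 9.75 CPM in ES cells and 45.9 CPM in MEFs. Rps6kb1, the S6 kinase, had 13.5 CPM in ES cells and 78.2 CPM in MEFs, and Akt1s1, the mTORC1 subunit PRAS40, had 25.2 CPM in ES cells and 104 CPM in MEFs. Mlst8 had no read in ES cells and 7.17 CPM in MEFs. The median of this list lay between 0 and the median gene.

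The nucleolar partners of Npm1 were the list with the largest share higher in ES cells, 8 of 12, with 1 higher in MEFs and 3 neither, and a median log2 ratio of 1.44 (SD 0.63). Nop56, a core protein of C/D small nucleolar particles, had 376 CPM in ES cells and 32.2 CPM in MEFs, a log2 ratio of 3.55 with an SD of 1.15. Dkc1, the pseudouridine synthase dyskerin, had 133 CPM in ES cells and 19.5 CPM in MEFs. Gnl3, or nucleostemin, had 232 CPM in ES cells and 41.7 CPM in MEFs, and Nhp2, a partner of dyskerin, had 197 CPM in ES cells and 69.9 CPM in MEFs. Of 7 measured host genes of small nucleolar RNAs, 3 were higher in ES cells, 1 was higher in MEFs and 3 lay between, median 0.67. Snhg3 had 388 CPM in ES cells and 126 CPM in MEFs, Snhg1 had 105 CPM in ES cells and 46.7 CPM in MEFs, Snhg7 had 24.7 CPM in ES cells and 11.1 CPM in MEFs, and Snhg12 had 19 CPM in ES cells and 62.2 CPM in MEFs. Of these 4, the log2 ratio exceeded its SD over rows for Snhg3 (1.62 against 0.59) and not for Snhg1, Snhg7 and Snhg12.

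The 20 cytosolic aminoacyl-tRNA synthetases, which charge the tRNAs that eEF1 delivers, were split evenly, with 5 higher in ES cells, 5 higher in MEFs and 10 between, median -0.27. The alpha and beta chains of the phenylalanine enzyme differed in direction, with Farsa at 17.9 CPM in ES cells and 70.9 CPM in MEFs and Farsb at 85.4 CPM in ES cells and 21 CPM in MEFs. Qars had 338 CPM in ES cells and 93.2 CPM in MEFs, and Wars had 18.1 CPM in ES cells and 121 CPM in MEFs. For all 4 the SD over rows was larger than the log2 ratio. The counts of all 10 lists depend on the scaling. With median-of-ratios size factors, under which 27.5% of all measured genes were called higher in ES cells and 41.7% in MEFs, the mTORC1 list gave 5 towards ES cells and 2 towards MEFs. The eIF3 subunits then gave 7 and 0, eIF1 to eIF6 gave 8 and 1, the eIF4 group 3 and 4, and termination 5 and 0, towards ES cells and MEFs in that order. The other elongation factors gave 1 and 5, the other TOP mRNAs 8 and 1, the snoRNA hosts 4 and 0, the synthetases 10 and 2, and the nucleolar list 10 and 0. With spike-in scaling, under which the median gene lay at -6.10, 0 genes of any of the 10 lists passed 2-fold towards ES cells.

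**Figure D5:**
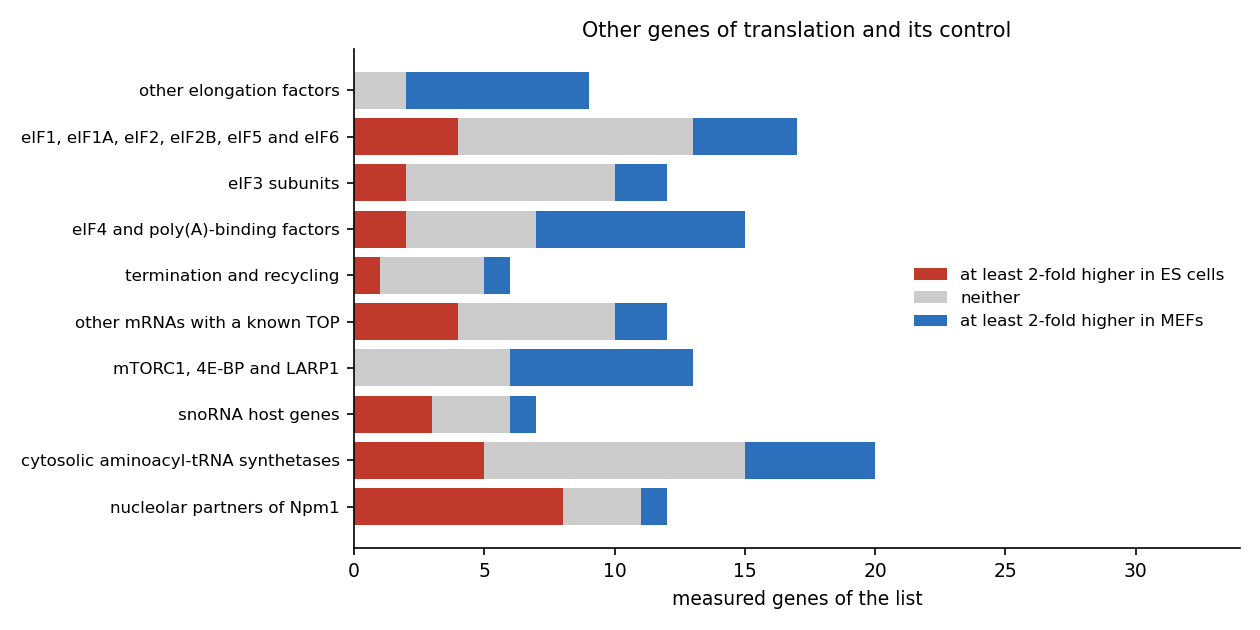
Number of measured genes in each of the 10 context lists that were at least 2-fold higher by CPM in ES cells (red), in MEFs (blue) or in neither (grey). The nucleolar list has the largest red part, 8 of 12, and no gene of the other elongation factors or of the mTORC1 list is red. With median-of-ratios size factors 1 and 5 genes of those lists would be red, and scaled to spike-in RNA, 0 genes of any list would be red.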

How the data were processed

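Raw read counts for each transcript, spike-in RNA and repeat type were deposited as 1 table of a whole plate, unnormalised. Per the file headers, barcodes, added Gs and trailing As were trimmed, the counts are maximum exon hits that include alternative mappings, and variants at 1 locus share counts. Uniquely mapped counts and transcript lengths were deposited alongside. Bowtie is named in the submitters' processing notes; its version, the genome build and the annotation are not given in the sources used here, so the table's positions are not printed. PCR copies were not removed.

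Wells with at least 10000 gene reads were kept, which left out 3 ES cell wells. For each type, the cells' counts were added up and expressed per 1e6 gene reads (CPM); the log2 ratio is ES cells over MEFs, a sum of 0 taking 3 reads over the group. "Higher" and "called" in counts of genes mean at least 2-fold. No p-value was computed, since the labels show no separate cultures. The SD over 8 plate rows mixes cell and technical variation within the plate. ES cells and MEFs filled opposite sides of the plate, so column and type cannot be told apart. Shares have exact Clopper-Pearson intervals and sums exact Poisson intervals (95%). From each context list the 4 measured genes with the largest absolute log2 ratio after adding 10 CPM were named, with the 5 genes most like the members in each type; Mlst8 and Eef1a2 were named after seeing their values.

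The members, lists and alternatives were chosen with earlier results of these data known. Alternatives covered scaling, thinning, background subtraction, parts of the plate, wells and added CPM. Analyses used Python 3.11.15, numpy 2.4.6, pandas 2.3.3 and scipy 1.17.1. Promoter sequences are from RefSeq, and those with a tract within 10 bases of the annotated start are printed.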

Additional observations from a re-analysis of the deposited data

Results flagged for a closer look

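In wells left out for low depth, member reads were set against the negative control wells, which held at most 79. ES cell replicates 32 and 44 lay above that count, with 83 member reads of 4136 gene reads and 136 of 9327. The third such well, ES cell replicate 46, had 54 member reads of 1641 and was not above it. As a share of gene reads the order differed, with 2.01% in replicate 32, 1.46% in replicate 44 and 3.29% in replicate 46. The controls had 0.424% to 1.69%, so by share replicates 32 and 46 lay above all of them and replicate 44 did not. For the member share of the 4 negative control wells, Dixon's outlier ratio was 0.52, below its critical value of 0.829. So few wells cannot show whether any of them stands apart.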

How the results depend on the processing

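Scaling decided most of what changed. The summed members' log2 ratio was 0.53 as reported, 1.77 with median-of-ratios size factors, 1.19 with totals that leave out ribosomal protein genes and -4.03 with spike-in scaling, where the sign turned. In the same order of settings, the members at least 2-fold higher in ES cells numbered 9, 6 and 0, against 2 as reported, and those higher in MEFs numbered 0, 0 and 10, against 1. Spike-in scaling put all 10 members below 0, which turned 8 of them, among them Eef1b2 to -3.29 and Npm1 to -2.98. The median gene lay at -0.48, -0.88 and -6.10 under these settings. With 10 CPM added, the median member relative to the median gene was 1.06 against 1.93. The other alternatives, including thinning, background subtraction, parts of the plate and leaving out 5 ES cell wells, kept the counts at 2 and 1. Over all alternatives but spike-in scaling, Eef1g ran from -0.46 to 1.13, Eif3e from -0.45 to 1.49 and Eef1d from -0.23 to 1.01, so these 3 have no stable direction. Of the single-member values, 82 moved by less than their row SD and 28 moved further. In 14 of the 110 values the sign changed, 8 of them under spike-in scaling and 6 under the others. The cause was not tested. Leaving out 5 doubted wells, chosen after seeing the data for this use, gave rho of 0.16 against 0.26 between summed members and ribosomal protein genes over ES cells. No replicate block was fitted, since the groups share no replicate numbers; differences within plate rows, which hold both types, are given with the results. ES cells were the shallower type, and 1 plate with 1 culture per type holds no variation between cultures.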
